A study of Mus musculus with 12 samples.

Results

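The genes described here make, sense, take up and export cholesterol, and their expression was measured in pigment-laden and other macrophages of mouse skin. The list held 32 genes and was given by name. A gene was included where the platform annotation of the arrays pairs a probe set with its symbol alone, and where it had several, the brightest by its mean across the 12 arrays stood for it. On this basis 29 of the 32 were measured among 19938 genes. They comprised 13 genes of cholesterol synthesis, 6 of sterol sensing, 6 of cholesterol efflux, and 4 of lipid uptake, desaturation and acyl remodelling. Acat2, Nr1h2 and Soat1 were not analysed here.

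The 4 groups were MHC-II-positive melanophages, MHC-II-negative melanophages, MHC-II-positive macrophages and MHC-II-negative macrophages, with 3 arrays each. Melanophages are macrophages that hold ingested melanin. Cells of every group came from the skin of untreated wild-type C57BL/6 mice kept free of specific pathogens, and were sorted as positive for CD11b and CD64 and negative for CD24, CCR2 and Ly6C. Melanophages had a high side scatter. For the macrophages the labels disagree, because the titles give a high and the phenotype field a low side scatter, so side scatter defined no group here. Of the sort markers on the arrays, Ccr2 had mean log2 values of 6.75 in MHC-II-positive and 3.40 in MHC-II-negative melanophages, and of 7.11 in MHC-II-positive and 3.99 in MHC-II-negative macrophages, although the labels give all cells as CCR2-negative. Animal age is not given in the sources used here. Whether the 3 arrays of each group stem from different animals is not stated in the labels. The p-values therefore cover the spread between arrays, which may be technical.

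Cholesterol is built from acetyl-CoA by way of mevalonate, isoprenoids, squalene and lanosterol. When sterols in the endoplasmic reticulum are low, SCAP carries the SREBP transcription factors to the Golgi, where they are cut and released to switch on the synthesis genes. When sterols are plentiful, INSIG proteins hold SCAP back. Excess cholesterol is turned in part into oxysterols, which activate the liver X receptors (LXR), and these induce the exporters ABCA1 and ABCG1, apolipoprotein E and the ubiquitin ligase MYLIP. Macrophages use both arms, since they take in the membranes and lipoproteins of what they engulf.

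Stretches of 100 bases upstream of the start of 5 genes are shown because the synthesis, sensing and SREBP genes with the lowest p-values or a central role below are classical targets of SREBP. They were taken from RefSeq (build GRCm38.p6) and run 5′ to 3′ along each gene's strand. Capitals mark the sterol regulatory element searched for, TCACCCCA, and the CCAAT box, written CCAAT or, where it lies on the other strand, ATTGG. The positions are chr13:119690164-119690263 (plus strand) for Hmgcs1, chr15:82147057-82147156 (plus) for Srebf2, chr13:8885506-8885605 (plus) for Idi1, chr8:64733689-64733788 (minus) for Msmo1 and chr5:28071162-28071261 (plus) for Insig1.
Hmgcs1: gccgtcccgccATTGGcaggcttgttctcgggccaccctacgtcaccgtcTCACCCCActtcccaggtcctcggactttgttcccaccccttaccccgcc
Srebf2: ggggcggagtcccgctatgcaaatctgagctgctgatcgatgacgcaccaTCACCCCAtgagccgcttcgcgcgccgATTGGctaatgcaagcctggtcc
Idi1: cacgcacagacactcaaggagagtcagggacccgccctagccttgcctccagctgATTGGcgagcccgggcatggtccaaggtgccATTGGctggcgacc
Msmo1: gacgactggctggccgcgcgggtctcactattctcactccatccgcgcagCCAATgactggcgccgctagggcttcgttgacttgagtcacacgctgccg
Insig1: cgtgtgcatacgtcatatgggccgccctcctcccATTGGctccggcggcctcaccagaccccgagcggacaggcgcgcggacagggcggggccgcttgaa

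Both motifs were searched on both strands of the 250 bases upstream of the start. TCACCCCA was found in 3 of the 20 measured genes with a promoter in the table, namely Hmgcs1 (starting 137 bases upstream), Srebf2 (162 bases upstream) and Apoe, against 1.54% of the 27025 genes with a promoter and 1.34% of 32851 promoters. CCAAT was found in 16 of these 20 genes, against 37.5% of the genes and 33.9% of the promoters. The 2 motifs did not overlap each other in the stretches printed. A match of letters is a description and not a site of binding.

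Values are the authors' log2 expression values, in which a difference of 1 is a doubling. Array medians over all probe sets lay between 2.97 and 3.08. Of the 29 genes, 9 had all 4 group means under 4, near those medians, against 68% of all genes. These were Mvk, Pmvk, Mvd, Lss and Dhcr7 of synthesis, Srebf1 and Stard4 of sensing, Nr1h3 of efflux, and Scd2, and fold changes near the medians can be understated. Replicate 1 of the MHC-II-negative macrophages and replicate 3 of the MHC-II-positive macrophages differed most from their group mates (SD of the difference over genes 0.406 and 0.356). For many of the main values the difference without both is therefore given too. Macrophage markers were present throughout, with a mean log2 value of 8.19 to 8.96 per array over 9 genes. In the MHC-II-positive class this mean was 8.38 to 8.46 in melanophages and 8.71 to 8.96 in macrophages. In the MHC-II-negative class it was 8.19 to 8.36 in melanophages and 8.39 to 8.79 in macrophages, so melanophages lay lower in both. All 10 keratinocyte and all 7 adipocyte markers, and 7 of 8 sebocyte markers, had group means under 4 in every group. In bulk samples such as these, fewer cells of a type and less RNA per cell cannot be told apart.

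**Figure D1:**
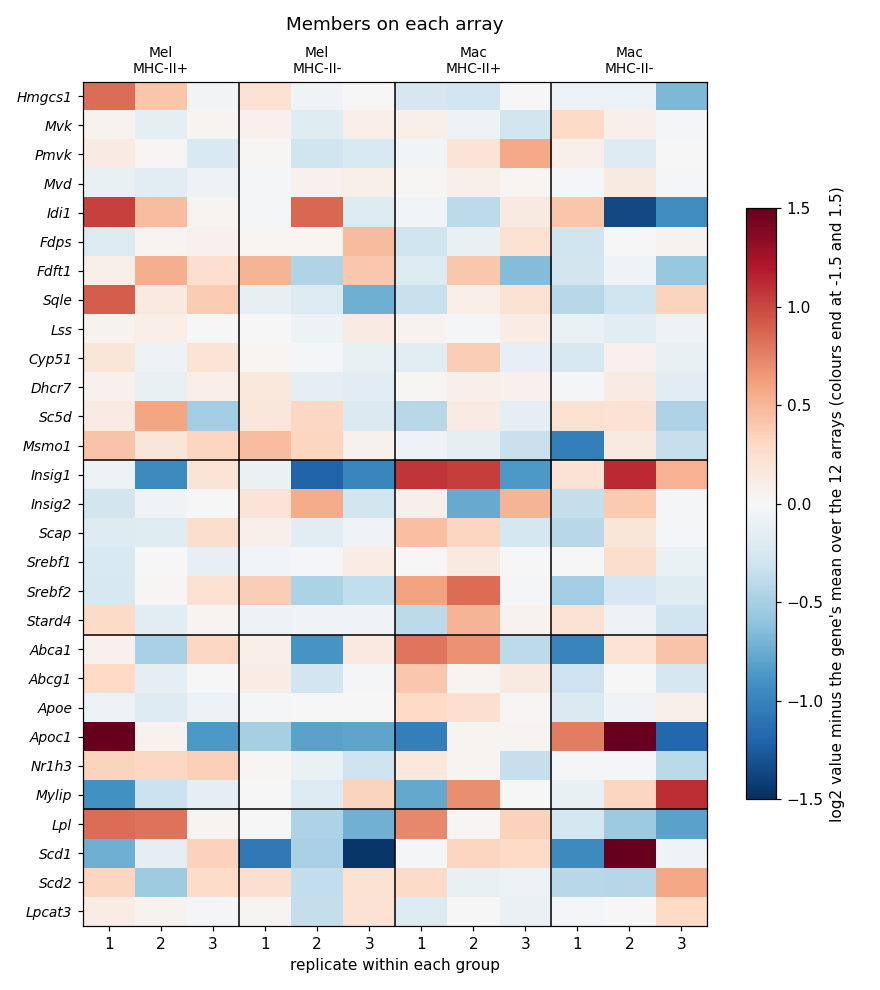
Expression of the 29 measured genes on each of the 12 arrays, drawn as colour for the log2 value minus the gene's own mean over all arrays (red above, blue below, colours ending at -1.5 and 1.5). Rows are grouped, with lines between, as synthesis, sterol sensing, efflux, and uptake with desaturation. Columns are the 3 replicates of each group. Msmo1 is mostly red in melanophages, Hmgcs1 is mostly blue in macrophages, Insig1 is mostly red in macrophages, and Lpl is redder in MHC-II-positive arrays.

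The first comparison set melanophages against macrophages. Several enzymes of cholesterol synthesis lay higher in melanophages. The lowest p-values were those of Msmo1, a methylsterol oxidase that acts after lanosterol, of Hmgcs1, which makes HMG-CoA at the top of the pathway, and of Idi1, which interconverts the isoprenoid building blocks. Insig1, which holds back SREBP activation, lay lower. None of these differences passed the test across all genes. Averaged over MHC-II class, 0 of 29 genes were called by limma at a Benjamini-Hochberg adjusted p under 0.05, against 0.12% of all genes. At an unadjusted p under 0.05 there were 4 (3 higher and 1 lower), against 7.52% of all genes. Of 8 dendritic cell markers, 2 were called lower in melanophages. Of 9 macrophage markers, 1 was called lower in melanophages, and 2 had a positive difference. The part of these marker lists in the differences was not tested.

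Msmo1 had log2 values of 6.85, 6.60 and 6.74 in MHC-II-positive melanophages, 6.88, 6.74 and 6.48 in MHC-II-negative melanophages, 6.34, 6.28 and 6.08 in MHC-II-positive macrophages, and 5.39, 6.55 and 6.07 in MHC-II-negative macrophages. All MHC-II-positive melanophage arrays lay above all MHC-II-positive macrophage arrays, while in the MHC-II-negative class 1 macrophage array overlapped the melanophages. The average difference was 0.60 ± 0.17 (SE), or 1.51-fold, with a 95% interval of 0.23 to 0.97 (limma, adjusted p = 0.359). Its lowest value came from MHC-II-negative macrophages replicate 1, and without both far macrophage arrays the average difference was 0.41 (adjusted p = 0.162).

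Hmgcs1 had log2 values of 6.15, 5.72 and 5.26 in MHC-II-positive melanophages, 5.53, 5.25 and 5.30 in MHC-II-negative melanophages, 5.06, 5.02 and 5.31 in MHC-II-positive macrophages, and 5.22, 5.21 and 4.63 in MHC-II-negative macrophages. In the MHC-II-negative class the melanophage arrays all lay above the macrophage arrays, and among MHC-II-positive cells the groups overlapped. Averaged over both classes, Hmgcs1 differed by 0.46 ± 0.16, or 1.38-fold (limma, adjusted p = 0.489). Without both far macrophage arrays this average was 0.55 (adjusted p = 0.207).

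Idi1 had log2 values of 6.70, 6.14 and 5.71 in MHC-II-positive melanophages, 5.65, 6.54 and 5.47 in MHC-II-negative melanophages, 5.63, 5.28 and 5.81 in MHC-II-positive macrophages, and 6.08, 4.32 and 4.74 in MHC-II-negative macrophages. The groups overlapped in both MHC-II classes. Idi1 differed by 0.72 ± 0.31 on average, or 1.65-fold (limma, adjusted p = 0.651), and by 1.04 without both far macrophage arrays (adjusted p = 0.115). A second Idi1 probe set gave 0.71.

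Fdft1, the squalene synthase, had log2 values of 5.59, 6.04 and 5.75 in MHC-II-positive melanophages, 6.01, 5.05 and 5.90 in MHC-II-negative melanophages, 5.30, 5.90 and 4.85 in MHC-II-positive macrophages, and 5.23, 5.43 and 4.93 in MHC-II-negative macrophages. One array of the MHC-II-negative melanophages was low and one of the MHC-II-positive macrophages high, so the groups overlapped in both classes. For Fdft1 the average difference was 0.45 ± 0.21 (limma, adjusted p = 0.68), and 0.33 without both far macrophage arrays (adjusted p = 0.54). A second Fdft1 probe set, whose mean level of 3.35 was near the array medians, gave 0.05, and the mean of both gave 0.25.

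The remaining enzymes differed less. Fdps, the farnesyl diphosphate synthase, had log2 values of 5.42, 5.66 and 5.70 in MHC-II-positive melanophages, 5.65, 5.65 and 6.10 in MHC-II-negative melanophages, 5.32, 5.51 and 5.86 in MHC-II-positive macrophages, and 5.32, 5.64 and 5.68 in MHC-II-negative macrophages, with overlap throughout. The average difference was 0.14 ± 0.12 for Fdps, 0.13 ± 0.19 for the squalene epoxidase Sqle, 0.07 ± 0.10 for the lanosterol demethylase Cyp51 and 0.15 ± 0.20 for the sterol desaturase Sc5d. The 5 enzymes near the array medians had average differences from -0.20 (Pmvk, phosphomevalonate kinase) to 0.07 (Lss, lanosterol synthase).

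Over the 13 synthesis genes, 9 had a positive and 4 a negative average difference, with a median of 0.13, against a median of 0.01 and 54.8% above 0 for all genes. All 8 synthesis genes with a group mean of at least 4 had a positive difference, with a median of 0.30. For all 6386 genes with such a mean the median was -0.01, and 48.7% lay above 0. Leaving out 1 array at a time moved the median of the 13 between 0.06 (without replicate 1 of the MHC-II-positive melanophages) and 0.155, with 9 to 11 genes above 0. It was under 0.08 also without replicate 1 of any other group or without replicate 3 of the MHC-II-negative macrophages. The median of the 8 brighter genes lay between 0.26 and 0.38, with all 8 above 0 in each of these fits, and without both far macrophage arrays it was 0.27, with 7 of 8 above 0. On single arrays, the number of these 8 genes above their own 12-array mean was 7, 7 and 6 in MHC-II-positive melanophages and 6, 4 and 3 in MHC-II-negative melanophages. It was 0, 4 and 4 in MHC-II-positive macrophages and 2, 4 and 2 in MHC-II-negative macrophages. The genes share arrays, so these counts are a description and were not tested.

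**Figure D2:**
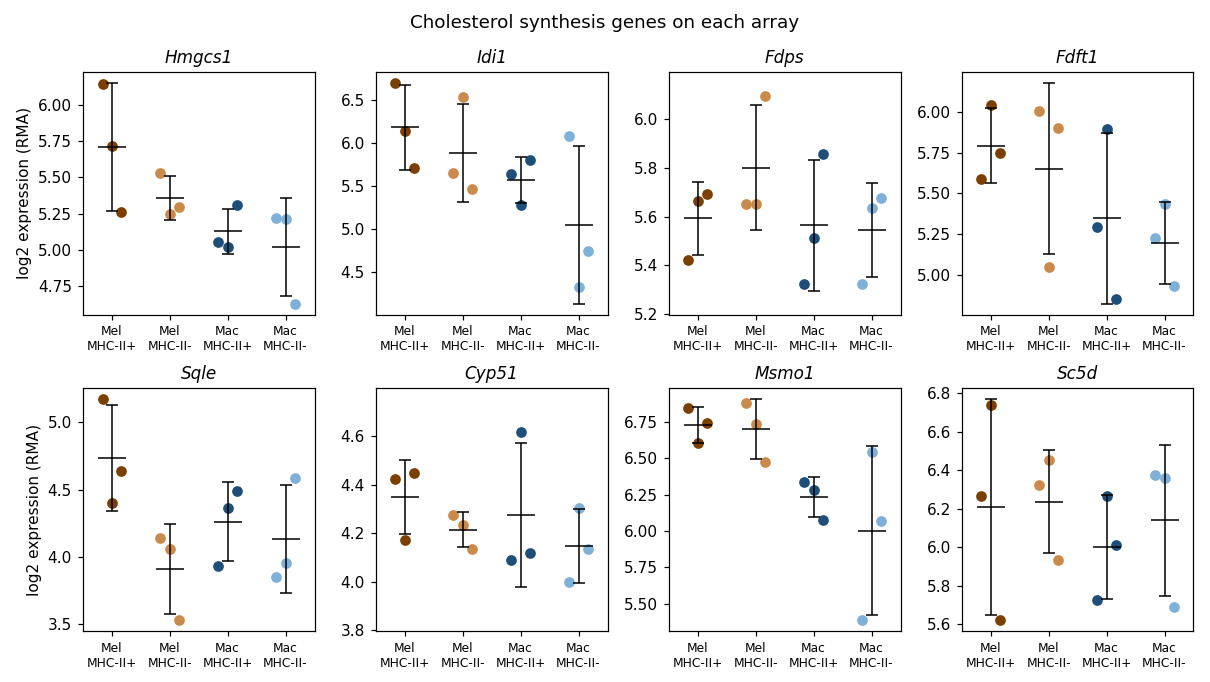
Log2 expression (RMA) of the 8 synthesis genes with a group mean of at least 4, with 1 point per array, a horizontal line at the group mean and bars of 1 SD (n = 3 arrays per group). Each panel has its own scale, which does not start at 0. Msmo1 and Hmgcs1 lie higher in melanophages than in macrophages, and Sqle lies higher in the MHC-II-positive of the melanophages.

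Within the MHC-II-positive class, 0 of 29 genes were called by limma, against 0.015% of all genes, and 4 had an unadjusted p under 0.05 (2 higher and 2 lower in melanophages), against 6.3% of all genes. Hmgcs1 differed by 0.58 ± 0.22 (adjusted p = 0.729) and Msmo1 by 0.50 ± 0.24 (adjusted p = 0.811). Without replicate 1 of the MHC-II-positive melanophages the Hmgcs1 difference was 0.36. Sqle differed by 0.48 ± 0.26 with overlapping arrays, by 0.26 without that array and by 0.31 without replicate 1 of the MHC-II-positive macrophages. Mvd, the mevalonate diphosphate decarboxylase, had values of 3.25, 3.20 and 3.29 in melanophages and 3.39, 3.44 and 3.40 in macrophages of this class. The Mvd groups did not overlap, but the difference of -0.16 ± 0.07 (adjusted p = 0.789) lay near the array medians. Of the 13 synthesis genes, 10 had a positive difference, with a median of 0.07 that lay between 0.05 and 0.24 when 1 array was left out.

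Within the MHC-II-negative class, 0 of 29 genes were called by limma, against 0.00502% of all genes, and 2 had an unadjusted p under 0.05 (Msmo1 higher and Insig1 lower in melanophages), against 5.65% of all genes. Msmo1 differed by 0.70 ± 0.24 (adjusted p = 0.708), Idi1 by 0.84 ± 0.44 and Hmgcs1 by 0.34 ± 0.22. The size of all 3 rested on single arrays. The Msmo1 difference was 0.39 (adjusted p = 0.499) and the Idi1 difference 1.35 (adjusted p = 0.283) without both far macrophage arrays. For Idi1 it was 0.47 without replicate 2 of the MHC-II-negative macrophages and 0.51 without replicate 2 of the MHC-II-negative melanophages. For Hmgcs1 it was 0.14 without replicate 3 of the MHC-II-negative macrophages. Lss had values of 2.77, 2.70 and 2.90 in melanophages and 2.67, 2.62 and 2.699 in macrophages of this class, with overlap and a difference of 0.13 ± 0.07, which was 0.07 without replicate 3 of the melanophages. Of the 13 synthesis genes, 9 had a positive difference, with a median of 0.10 that lay between 0.055 and 0.15 when 1 array was left out.

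**Figure D3:**
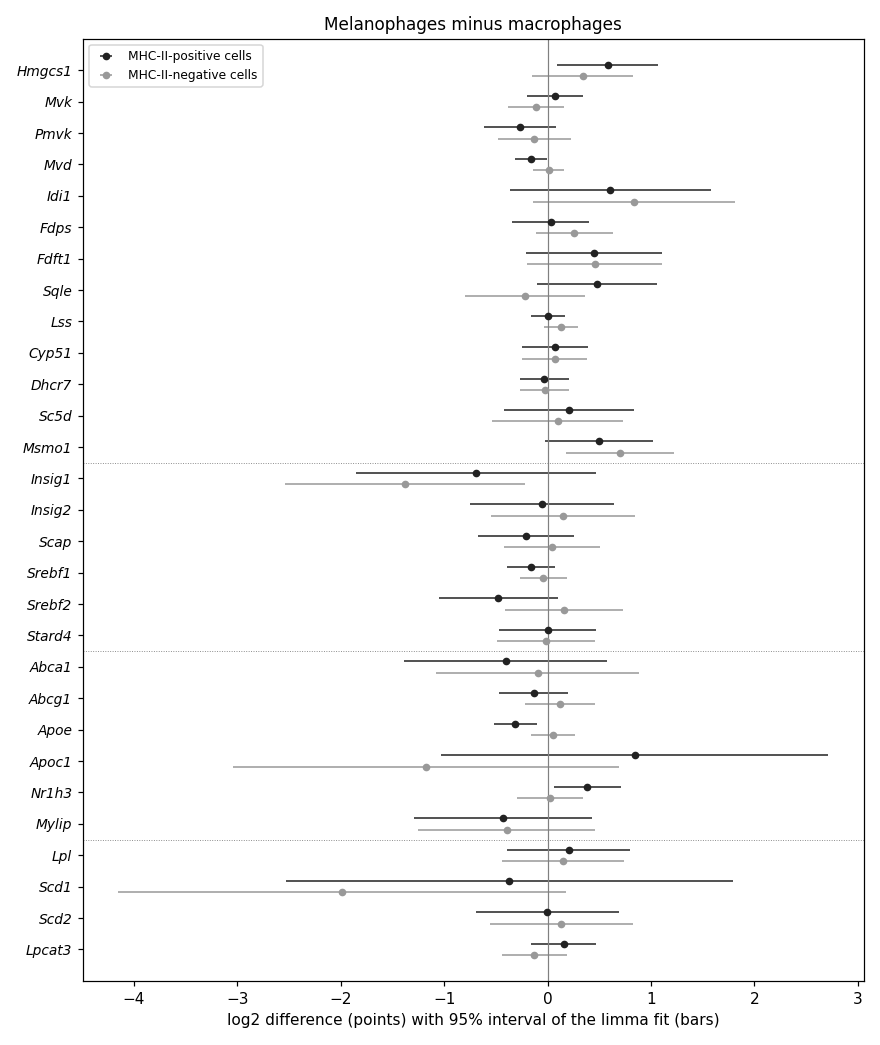
Melanophages minus macrophages, as log2 differences (points) with 95% intervals of the limma fit (bars), for each of the 29 measured genes. Black is the MHC-II-positive and grey the MHC-II-negative class, and dotted lines part synthesis, sterol sensing, efflux, and uptake with desaturation. In both classes Msmo1, Hmgcs1, Idi1 and Fdft1 lie right of 0 and Insig1 left of 0, and most bars cross 0.

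Among the genes of sterol sensing, Insig1 had log2 values of 6.79, 5.90 and 7.07 in MHC-II-positive melanophages, 6.76, 5.67 and 5.88 in MHC-II-negative melanophages, 7.94, 7.89 and 6.01 in MHC-II-positive macrophages, and 7.08, 7.98 and 7.39 in MHC-II-negative macrophages. Every MHC-II-negative melanophage array lay below every MHC-II-negative macrophage array. Among MHC-II-positive cells the groups overlapped, because replicate 3 of the macrophages, one of the far arrays, was low. The average difference was -1.04 ± 0.37, or 2.05-fold lower in melanophages, with a 95% interval of -1.86 to -0.21 (limma, adjusted p = 0.529). Within the classes the difference was -0.69 ± 0.52 (MHC-II-positive) and -1.38 ± 0.52 (MHC-II-negative, adjusted p = 0.779). Without both far macrophage arrays the average difference was -1.46 (adjusted p = 0.0658).

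Insig1 is itself a target of SREBP, as are Hmgcs1, Idi1, Msmo1 and Sqle. In these arrays the sign of the Insig1 difference was opposite to that of the average differences of these 4 enzymes. Insig2, the related protein that is not under the same sterol control, averaged 4.18 ± 0.15 in MHC-II-positive melanophages, 4.45 ± 0.42 in MHC-II-negative melanophages, 4.23 ± 0.64 in MHC-II-positive macrophages and 4.30 ± 0.37 in MHC-II-negative macrophages. Its average difference was 0.05 ± 0.22.

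Srebf2, which encodes the SREBP most devoted to cholesterol synthesis, had log2 values of 4.52, 4.78 and 4.995 in MHC-II-positive melanophages, 5.13, 4.29 and 4.40 in MHC-II-negative melanophages, 5.37, 5.61 and 4.74 in MHC-II-positive macrophages, and 4.24, 4.52 and 4.58 in MHC-II-negative macrophages. MHC-II-positive macrophages replicates 1 and 2 were the highest of all arrays, and the melanophages overlapped the macrophages in both classes. The difference between melanophages and macrophages was -0.48 ± 0.26 in the MHC-II-positive class (limma, adjusted p = 0.855) and 0.16 ± 0.26 in the MHC-II-negative class. Without both far macrophage arrays the first was -0.72 (adjusted p = 0.305), and without replicate 2 of the MHC-II-positive macrophages it was -0.29. A probe set that carries the symbols of Srebf2 and of other genes, and so did not stand for Srebf2, gave 0.21 in the MHC-II-positive class. Srebf1, whose product acts more on fatty acid genes, had values of 3.28, 3.52 and 3.39 in melanophages and 3.52, 3.65 and 3.51 in macrophages of the MHC-II-positive class, with overlap and a difference of -0.16 ± 0.10. The average differences of Scap, the escort of SREBP, and of the sterol carrier Stard4 were -0.08 ± 0.15 and -0.01 ± 0.15. Of the 6 sensing genes, 5 had a negative average difference, with a median of -0.09 (-0.15 to -0.03 without 1 array).

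**Figure D4:**
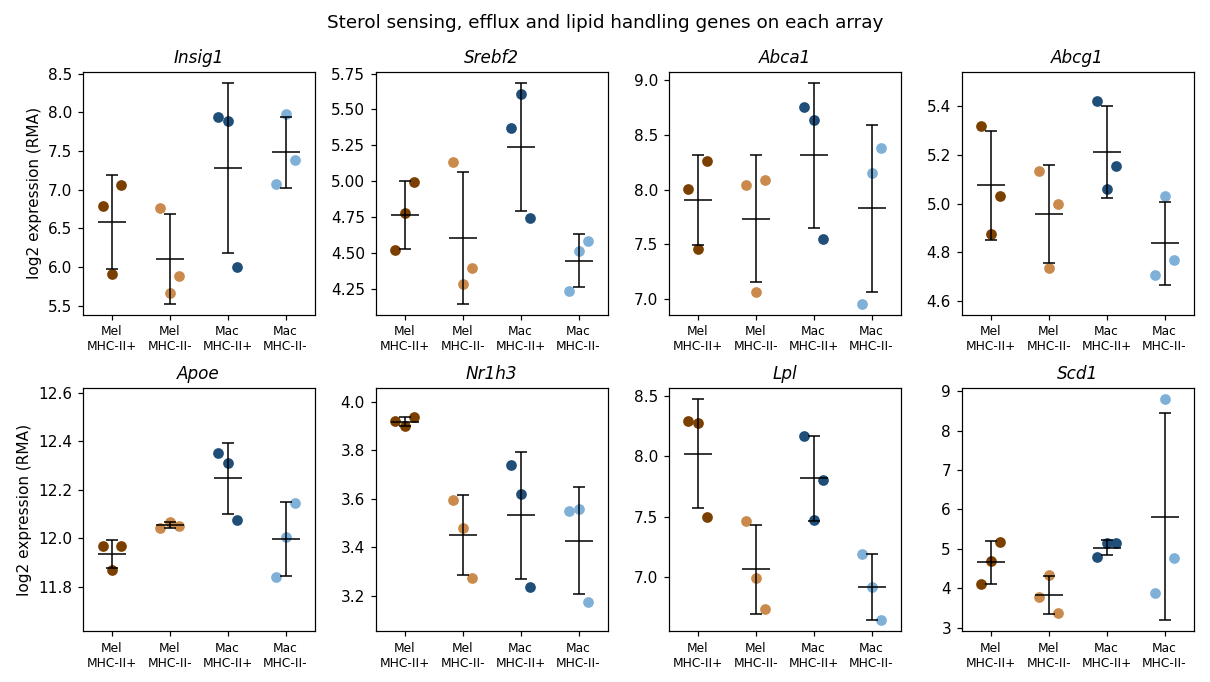
Log2 expression (RMA) of Insig1, Srebf2, Abca1, Abcg1, Apoe, Nr1h3, Lpl and Scd1, with 1 point per array, a horizontal line at the group mean and bars of 1 SD (n = 3 arrays per group). Each panel has its own scale, which does not start at 0. Lpl separates MHC-II-positive from MHC-II-negative arrays in both cell kinds, and 1 MHC-II-negative macrophage array stands alone in Scd1.

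Of the 6 efflux genes, 5 had a negative average difference between melanophages and macrophages, with a median of -0.15 (-0.21 to -0.04 without 1 array). Abca1, the exporter that loads cholesterol onto lipid-poor apolipoproteins, averaged 7.91 ± 0.41 in MHC-II-positive melanophages, 7.73 ± 0.58 in MHC-II-negative melanophages, 8.31 ± 0.66 in MHC-II-positive macrophages and 7.83 ± 0.76 in MHC-II-negative macrophages. Its average difference was -0.25 ± 0.31, with a 95% interval of -0.95 to 0.45. Within both macrophage groups the far array was the lowest, at 7.55 (MHC-II-positive) and 6.96 (MHC-II-negative). Abcg1, which loads cholesterol onto high-density lipoprotein, had an average difference of -0.01 ± 0.11, with an interval of -0.25 to 0.23.

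Apoe, the apolipoprotein that macrophages secrete as a cholesterol acceptor, had log2 values of 11.97, 11.87 and 11.97 in MHC-II-positive melanophages, 12.04, 12.07 and 12.05 in MHC-II-negative melanophages, 12.35, 12.31 and 12.08 in MHC-II-positive macrophages, and 11.84, 12.01 and 12.15 in MHC-II-negative macrophages. All MHC-II-positive melanophage arrays lay below all MHC-II-positive macrophage arrays. The difference in that class was -0.31 ± 0.10, or 1.24-fold lower in melanophages (limma, adjusted p = 0.596), and averaged over both classes it was -0.13 ± 0.07. In the MHC-II-negative class it was 0.06 ± 0.10. Without both far macrophage arrays the difference in the MHC-II-positive class was -0.40 (adjusted p = 0.0946) and the average -0.21 (adjusted p = 0.126).

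Nr1h3, which encodes LXR alpha, had log2 values of 3.92, 3.90 and 3.94 in MHC-II-positive melanophages, 3.60, 3.48 and 3.27 in MHC-II-negative melanophages, 3.74, 3.62 and 3.24 in MHC-II-positive macrophages, and 3.55, 3.56 and 3.18 in MHC-II-negative macrophages. The MHC-II-positive melanophages lay above every array of the other groups, at a level near the array medians. Against MHC-II-positive macrophages the difference was 0.39 ± 0.15 (limma, adjusted p = 0.729), and averaged over both classes it was 0.20 ± 0.10. Without both far macrophage arrays the first was 0.24 (adjusted p = 0.562), and without replicate 3 of the MHC-II-positive macrophages the average was 0.13.

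Apoc1, a small apolipoprotein encoded beside Apoe, had log2 values of 6.34, 4.003 and 3.09 in MHC-II-positive melanophages, 3.46, 3.14 and 3.16 in MHC-II-negative melanophages, 2.93, 3.99 and 3.99 in MHC-II-positive macrophages, and 4.71, 5.79 and 2.78 in MHC-II-negative macrophages. Single arrays in several groups were high, and the largest Apoc1 difference between cell kinds, -1.17 ± 0.84 in the MHC-II-negative class (limma, adjusted p = 0.982), was within that spread. It was -0.49 without replicate 2 and -2.001 without replicate 3 of the MHC-II-negative macrophages. Mylip, an LXR target that marks lipoprotein receptors for degradation, had values of 5.42, 6.001 and 6.19 in MHC-II-positive melanophages, 6.33, 6.12 and 6.67 in MHC-II-negative melanophages, 5.56, 7.02 and 6.33 in MHC-II-positive macrophages, and 6.22, 6.65 and 7.43 in MHC-II-negative macrophages. Its average difference was -0.41 ± 0.27 with overlapping arrays. In the MHC-II-negative class the Mylip difference was -0.06 without replicate 3 and -0.67 without replicate 1 of the macrophages.

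Scd1, the stearoyl-CoA desaturase, had log2 values of 4.10, 4.69 and 5.18 in MHC-II-positive melanophages, 3.77, 4.34 and 3.38 in MHC-II-negative melanophages, 4.80, 5.16 and 5.14 in MHC-II-positive macrophages, and 3.88, 8.80 and 4.77 in MHC-II-negative macrophages. MHC-II-negative macrophages replicate 2 stood far above every other array. The Scd1 difference within the MHC-II-negative class was -1.99 ± 0.98 (limma, adjusted p = 0.922), and without that array it was -0.50. The average over both classes was -1.18 with it and -0.43 without it. The same array had the highest Apoc1 of its group and a value of 4.93 for Far2, a fatty acyl-CoA reductase on the sebocyte marker list, against 2.80 to 2.97 on the other arrays. The summed log2 level of the 8 sebocyte markers ranged from 25.9 to 26.6 in MHC-II-positive melanophages, 25.8 to 26.5 in MHC-II-negative melanophages, 24.8 to 26.1 in MHC-II-positive macrophages and 25.8 to 27.8 in MHC-II-negative macrophages, where this array was highest. Far2 itself enters this sum. Mgst1, the only one of these markers with a group mean of at least 4, was 7.33 on this array. The other arrays of its group had higher Mgst1 values, 8.17 and 7.58. Outside the marker list, the fatty acid elongase gene Elovl6 was 5.21 on MHC-II-negative macrophages replicate 2, against 2.63 to 3.46 on the other arrays. Fasn, the fatty acid synthase, was 3.69 on it, within the 3.57 to 3.98 of the others. The part of these markers and genes in the Scd1 value was not tested.

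Scd2, another desaturase, and Lpcat3, an LXR target that inserts polyunsaturated chains into phospholipids, differed by 0.06 ± 0.22 and 0.01 ± 0.10 on average between melanophages and macrophages. Lpl, the lipoprotein lipase that frees fatty acids from lipoprotein triglyceride, differed by 0.18 ± 0.19 between the cell kinds.

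The second comparison set MHC-II-positive cells against their MHC-II-negative counterparts. Lpl was about 1.9-fold higher in MHC-II-positive cells of both kinds and came nearest to the threshold of all 29 genes. Smaller positive differences were found for Nr1h3, Srebf2, Sqle and Abcg1, each with arrays that did not overlap in 1 of the 2 cell kinds. With so few arrays per group, a gene can separate in this way by chance. The share of all genes without overlap is not given here. A lack of overlap, for these and the other genes described, is therefore a description and not a test. Averaged over cell kind, 0 of 29 genes were called by limma, against 0.762% of all genes. At an unadjusted p under 0.05 there were 5, all higher in MHC-II-positive cells, against 9.23% of all genes.

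Lpl had log2 values of 8.29, 8.27 and 7.50 in MHC-II-positive melanophages and 7.47, 6.998 and 6.74 in MHC-II-negative melanophages. It had 8.17, 7.47 and 7.81 in MHC-II-positive macrophages and 7.19, 6.92 and 6.65 in MHC-II-negative macrophages. The MHC-II-positive and MHC-II-negative arrays did not overlap within either cell kind. The average difference was 0.93 ± 0.19, or 1.90-fold, with a 95% interval of 0.51 to 1.35 (limma, adjusted p = 0.0618). It was 0.95 ± 0.27 in melanophages (adjusted p = 0.419) and 0.90 ± 0.27 in macrophages (adjusted p = 0.317). The difference passed the threshold without replicate 3 of the MHC-II-positive melanophages (1.06, adjusted p = 0.028) and did not without both far macrophage arrays (0.997, adjusted p = 0.106). At the same size it passed with the run of the sample codes as a block (adjusted p = 0.0139), under both filters on dim genes (0.0356 and 0.0198) and with limma's trend and robust options (0.0406).

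Of 7 sort markers, 4 were called higher in MHC-II-positive cells by limma, namely the 3 MHC-II genes that define the classes and Ccr2 (3.23 ± 0.20, adjusted p = 3.93e-05). Cd24a, whose protein the sort also excluded, differed by 1.54 ± 0.32 (adjusted p = 0.0679). Of 8 dendritic cell markers 3 were called higher (Cd207, Ccr7 and Itgax), and 4 (Flt3, Zbtb46, Xcr1 and Dpp4) had group means under 4 in every group. The summed log2 level of the 8 ranged from 31.8 to 36.1 in MHC-II-positive melanophages, against 29.1 to 30.2 in MHC-II-negative melanophages, and from 36.6 to 38.5 in MHC-II-positive macrophages, against 29.9 to 31.2 in MHC-II-negative macrophages. Of 8 mast cell and neutrophil markers 0 were called and 5 had group means under 4 in every group. Their summed log2 level ranged from 29.47 to 34.65 in MHC-II-positive melanophages, against 29.48 to 33.95 in MHC-II-negative melanophages, and from 27.65 to 30.14 in MHC-II-positive macrophages, against 31.63 to 33.63 in MHC-II-negative macrophages, where the groups did not overlap. The mast cell protease Cpa3 averaged 4.74 in MHC-II-positive and 5.21 in MHC-II-negative melanophages, and 3.67 in MHC-II-positive and 5.54 in MHC-II-negative macrophages. S100a8, on the same list, went the other way and was the 1 marker of the 8 with a positive average difference. It averaged 6.93 in MHC-II-positive and 5.86 in MHC-II-negative melanophages, and 5.53 in MHC-II-positive and 4.88 in MHC-II-negative macrophages. The part of these marker lists in the Lpl and other MHC-II differences was not tested.

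Among synthesis genes, Sqle had log2 values of 5.17, 4.40 and 4.64 in MHC-II-positive melanophages and 4.14, 4.06 and 3.53 in MHC-II-negative melanophages. It had 3.93, 4.36 and 4.49 in MHC-II-positive macrophages and 3.85, 3.96 and 4.59 in MHC-II-negative macrophages. The melanophage arrays did not overlap, and the macrophage arrays did. The Sqle difference was 0.83 ± 0.26 in melanophages, or 1.78-fold (limma, adjusted p = 0.542), 0.13 ± 0.26 in macrophages and 0.48 ± 0.19 on average (adjusted p = 0.435). The other synthesis genes had average differences between -0.10 (Mvk, mevalonate kinase) and 0.41 (Idi1).

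Near the array medians, Pmvk had values of 3.46, 3.35 and 3.11 in MHC-II-positive melanophages and 3.36, 3.04 and 3.11 in MHC-II-negative melanophages, and of 3.29, 3.53 and 3.90 in MHC-II-positive macrophages and 3.41, 3.14 and 3.32 in MHC-II-negative macrophages. The Pmvk arrays overlapped in both kinds. Pmvk differed by 0.21 ± 0.11 (0.13 without replicate 3 of the MHC-II-positive macrophages), Lss by 0.09 ± 0.05 and Mvd by -0.07 ± 0.05 on average. In MHC-II-negative melanophages Mvd had values of 3.34, 3.43 and 3.45, all above those of MHC-II-positive melanophages given earlier, with a difference of -0.16 ± 0.07. In MHC-II-positive macrophages Lss had values of 2.83, 2.75 and 2.88, all above those of MHC-II-negative macrophages, with a difference of 0.16 ± 0.07. Of the 13 synthesis genes, 9 had a positive average difference, with a median of 0.13, against a median of -0.02 and 40.2% above 0 for all genes. Without 1 array the median of the 13 lay between 0.065 and 0.17.

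Srebf2 differed between MHC-II-positive and MHC-II-negative macrophages by 0.79 ± 0.26, or 1.73-fold, without overlap (limma, adjusted p = 0.408). In melanophages the Srebf2 difference was 0.16 ± 0.26, and on average it was 0.48 ± 0.18 (adjusted p = 0.435). Without both far macrophage arrays the difference in macrophages was 0.94 (adjusted p = 0.283). The probe set that Srebf2 shares with other genes gave -0.04 in macrophages and 0.025 on average. The average difference of Insig1 was 0.14 ± 0.37. Nr1h3 differed by 0.47 ± 0.15 in melanophages without overlap (limma, adjusted p = 0.529), by 0.11 ± 0.15 in macrophages and by 0.29 ± 0.10 on average (adjusted p = 0.391).

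Abcg1 had log2 values of 5.32, 4.88 and 5.03 in MHC-II-positive melanophages and 5.14, 4.74 and 4.999 in MHC-II-negative melanophages, which overlapped. It had 5.42, 5.06 and 5.15 in MHC-II-positive macrophages and 4.71, 5.03 and 4.77 in MHC-II-negative macrophages, which did not overlap. The Abcg1 difference was 0.38 ± 0.15 in macrophages (limma, adjusted p = 0.567) and 0.25 ± 0.11 on average (adjusted p = 0.516). Abca1 differed by 0.33 ± 0.31 on average. Of the 6 efflux genes 5 had a positive average difference, with a median of 0.23 (0.12 to 0.31 without 1 array), and Mylip alone had a negative one (-0.48 ± 0.27).

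Within melanophages, 0 of 29 genes were called by limma in the MHC-II comparison, against 0.211% of all genes. At an unadjusted p under 0.05 there were 4 (Lpl, Sqle and Nr1h3 higher and Mvd lower), against 5.7% of all genes. Apoe was lower in all 3 MHC-II-positive than in all 3 MHC-II-negative melanophage arrays, with a difference of -0.12 ± 0.10. Apoc1, Hmgcs1, Fdps and Mylip differed by 1.23 ± 0.84, 0.35 ± 0.22, -0.21 ± 0.17 and -0.50 ± 0.39, all with overlapping arrays. Without replicate 1 of the MHC-II-positive melanophages these were 0.29, 0.13, -0.12 and -0.27. Without replicate 3 of that group the first pair was 1.92 and 0.57, and Fdps was -0.06 without replicate 3 of the MHC-II-negative melanophages.

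Within macrophages, 0 of 29 genes were called by limma in the MHC-II comparison, against 0.341% of all genes. At an unadjusted p under 0.05 there were 4 (Lpl, Srebf2, Apoe and Abcg1, all higher), against 7.83% of all genes. Apoe differed by 0.25 ± 0.10 with overlapping arrays (limma, adjusted p = 0.531). Mvk had values of 3.39, 3.23 and 3.03 in MHC-II-positive macrophages and 3.59, 3.38 and 3.27 in MHC-II-negative macrophages. Pmvk, Mvk and Idi1 differed by 0.28 ± 0.16, -0.19 ± 0.12 and 0.52 ± 0.44, all with overlapping arrays. Without both far macrophage arrays they were 0.18, -0.01 and 0.92 (adjusted p = 0.869, 0.994 and 0.572). Idi1 was 1.04 without replicate 1 and 0.16 without replicate 2 of the MHC-II-negative macrophages. Without replicate 3 of the MHC-II-positive macrophages Pmvk was 0.12 and Mvk -0.10, without replicate 1 of them Pmvk was 0.42, and without replicate 1 of the MHC-II-negative ones Mvk was -0.11.

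**Figure D5:**
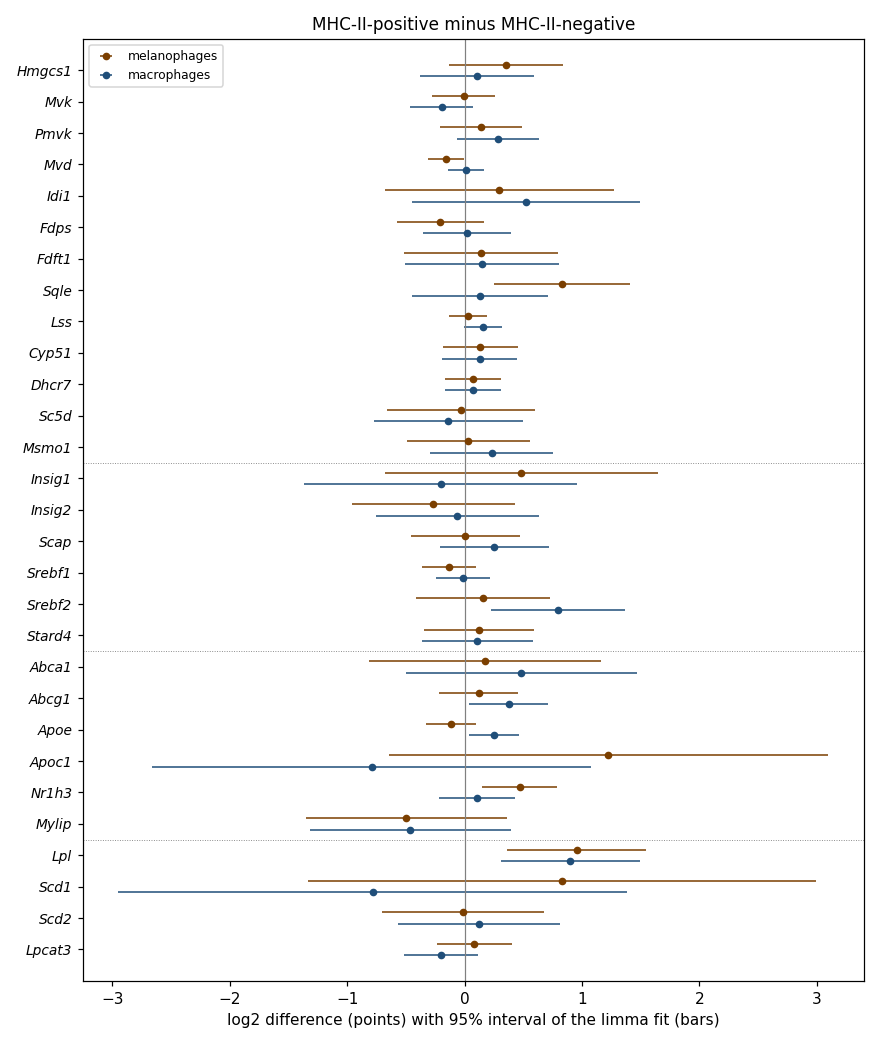
MHC-II-positive minus MHC-II-negative cells, as log2 differences (points) with 95% intervals of the limma fit (bars), for each of the 29 measured genes. Brown is melanophages and blue macrophages, and dotted lines part synthesis, sterol sensing, efflux, and uptake with desaturation. Lpl lies near 0.9 in both cell kinds, Sqle and Nr1h3 lie right of 0 in melanophages, and Srebf2 and Abcg1 lie right of 0 in macrophages.

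The interaction asked whether the MHC-II difference was itself different between melanophages and macrophages. By limma 0 of 29 genes were called, against 0% of all genes, and 1 had an unadjusted p under 0.05, against 4.11% of all genes. That gene was Apoe, whose MHC-II difference was lower in melanophages than in macrophages by 0.37 on the log2 scale (interaction -0.37 ± 0.14, limma, adjusted p = 1). For Sqle the interaction was 0.70 ± 0.37, for Srebf2 -0.64 ± 0.37 and for Nr1h3 0.36 ± 0.21, so that the contrast between cell kinds described for these genes was not shown by a test. For Lpl it was 0.05 ± 0.38.

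Other genes of the same pathways were taken from a list of 56, of which 47 were measured. Averaged over MHC-II class, 0 of these 47 were called between melanophages and macrophages, against 0.12% of all genes, and 5 had an unadjusted p under 0.05 (4 higher and 1 lower), against 7.52%. Averaged over cell kind, 1 of 47 was called in the MHC-II comparison, against 0.762% of all genes, and 10 had an unadjusted p under 0.05 (7 higher and 3 lower), against 9.23%. None was called within a class, within a cell kind or in the interaction.

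The called gene was Elovl5, which elongates polyunsaturated fatty acids. It had log2 values of 7.71, 7.49 and 7.61 in MHC-II-positive melanophages and 6.51, 6.84 and 5.93 in MHC-II-negative melanophages, and of 7.92, 7.65 and 7.38 in MHC-II-positive macrophages and 6.14, 7.20 and 6.84 in MHC-II-negative macrophages. The arrays did not overlap in either cell kind. Elovl5 rose by 1.05 ± 0.20 in MHC-II-positive cells, or 2.07-fold (limma, adjusted p = 0.0424). The call ended in 9 of the 12 fits that left out 1 array, and over the 12 the difference ranged from 0.90 to 1.17, with adjusted p-values up to 0.11. It held without replicate 2 of either MHC-II-negative group and without replicate 3 of the MHC-II-positive macrophages. At 1.05 it was lost with the run of the sample codes as a block (adjusted p = 0.065) and with every probe set tested (0.084).

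Among the 12 measured genes of endosomal and oxysterol handling, the lowest p in the MHC-II comparison was that of Ch25h, which makes the oxysterol 25-hydroxycholesterol. It averaged 4.68 ± 0.45 in MHC-II-positive and 6.08 ± 0.98 in MHC-II-negative melanophages, and 5.09 ± 0.28 in MHC-II-positive and 6.44 ± 0.18 in MHC-II-negative macrophages (SD, n = 3 each). The arrays did not overlap in either cell kind. In melanophages they nearly touched, since the highest MHC-II-positive array was 5.199 and the lowest MHC-II-negative array 5.202. The average difference was -1.38 ± 0.29, or 2.59-fold lower in MHC-II-positive cells (limma, adjusted p = 0.0689). Between melanophages and macrophages the gene of this list with the lowest p was Stard3, a sterol carrier of late endosomes, with -0.54 ± 0.22 (adjusted p = 0.61).

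Among 14 genes of lipoprotein and lipid uptake, the lowest p in both averaged comparisons was that of Cd36, a scavenger receptor for oxidised lipoproteins and fatty acids. It averaged 10.75 ± 0.09 in MHC-II-positive and 10.94 ± 0.03 in MHC-II-negative melanophages, and 10.39 ± 0.11 in MHC-II-positive and 10.72 ± 0.05 in MHC-II-negative macrophages. The melanophages lay above the macrophages without overlap in both classes, by 0.29 ± 0.05 on average (limma, adjusted p = 0.119). MHC-II-positive cells lay below MHC-II-negative cells without overlap in both kinds, by -0.26 ± 0.05 (adjusted p = 0.0643).

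Of the remaining lists the genes with the lowest p are given here. Nsdhl, a sterol dehydrogenase that acts after Msmo1, differed by 0.46 ± 0.25 between melanophages and macrophages (limma, adjusted p = 0.726) and did not overlap in the MHC-II-positive class. In the MHC-II-negative class it overlapped, with 5.32, 5.29 and 5.56 in melanophages and 4.12, 5.82 and 4.49 in macrophages. The 4.12 was on replicate 1, one of the far arrays. Acly, which supplies acetyl-CoA, differed by -0.38 ± 0.17 (adjusted p = 0.671). Mbtps1, the protease that makes the first cut in SREBP, differed by -0.13 ± 0.08 between the kinds and by 0.28 ± 0.08 between MHC-II-positive and MHC-II-negative cells (adjusted p = 0.283). Idi2 differed by -0.12 ± 0.07 in the MHC-II comparison (adjusted p = 0.648). The group means of Mbtps1 (2.52 to 2.98) and of Idi2 (2.35 to 2.58) lay near or under the array medians, which limits both.

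For the 20 genes with a group mean of at least 4, the 95% interval of an averaged difference had a half-width from 0.15 (Apoe) to 1.53 (Scd1), with a median of 0.41. The whole interval lay within -1 and 1 for 15 of the 20 between melanophages and macrophages and for 14 of the 20 between MHC-II classes. Within a class or kind the median half-width was 0.58 (log2).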

How the data were processed

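Total RNA of sorted cells was amplified, labelled with biotin and hybridised to Affymetrix arrays, per the labels' protocols. The log2 expression values deposited by the authors came from RMA (the oligo package), per the submitters' processing notes. Their versions, settings and filters are not stated in the sources used. No genome build is named for the arrays.

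Of 35556 probe sets, 21789 carry 1 gene symbol, 1621 several and 12146 none here. The probe set with the highest mean was kept per gene (19938 genes). All 12 arrays were fitted together with limma 3.58.1 (lmFit, eBayes) under R 4.3.3 (1 mean for each group, 8 residual and 2.44 prior degrees of freedom). Two-sided p-values were adjusted by Benjamini-Hochberg over all genes in each of 7 comparisons, and called under 0.05. Replicates were numbered in accession order, and no pair of arrays among 66 held identical values. The fit was also run on data simulated with independent noise and known shifts in brighter genes of melanophages. Such data lack far arrays and genes that vary together, so that run does not bear on the small differences above. Precision is limited by the number of arrays.

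The members, lists and rules were chosen with earlier results of these data known. Values on every array are given for up to 4 synthesis genes and up to 4 other members with the lowest p in each comparison but the interaction, and for genes near the array medians, in the groups of that comparison. Of the other pathway genes, called ones are named, or the one with the lowest p in each list for the averaged comparisons. Alternatives were filters on dim genes, other normalizations, other probe set rules, other limma options, leaving out arrays, fits of 2 groups only, and the run in the sample codes as a block.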

Additional observations from a re-analysis of the deposited data

How the results depend on the processing

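The count of 0 called members held in every alternative for 6 of the 7 comparisons. For the MHC-II comparison averaged over both kinds of cell it was 1, Lpl, in 5 of 23 alternatives: only genes with a highest group mean above the median of all genes (adjusted p = 0.0356) or above 5 (0.0198), limma with trend and robust options (0.0406), the run in the sample codes as a block (0.0139), and without MHC-II-positive melanophages replicate 3 (0.028). Leaving out 1 array at a time gave 0 to 1. In the filters fewer genes were tested, and the cause was not tested for the others. Over the 49 results on single genes, 1121 of 1137 alternative values kept direction and side of the threshold, 5 (Lpl) newly passed it, 11 (Elovl5) no longer passed it, and 0 reversed. Besides 9 fits without 1 array, Elovl5 missed the threshold with every probe set tested (adjusted p = 0.084) and with the run as a block (0.065). The number of all genes called ranged from 1 to 117 against 24 reported for melanophages against macrophages (117 without both far macrophage arrays), from 0 to 19 against 1 in the MHC-II-negative class, and from 0 to 34 against 3 in the MHC-II-positive class. It ranged from 96 to 215 against 152 for the averaged MHC-II comparison, from 19 to 63 against 42 in melanophages, from 27 to 101 against 68 in macrophages, and from 0 to 3 against 0 for the interaction. The sample codes form 3 runs with 1 array of each group. Deviations of same-run arrays from their group means correlated at -0.248 to 0.27 (18 pairs, 5 over 0.1). For arrays of different runs the range was -0.292 to 0.272 (36 pairs, 11 over 0.1). The runs were therefore not taken to pair arrays, and the run was tried only as a block. Single genes can still follow the run. In melanophages Cpa3 was 3.84, 6.57 and 5.23 in MHC-II-negative and 3.39, 6.14 and 4.69 in MHC-II-positive replicates 1 to 3. In macrophages the order differed, with 6.13, 5.18 and 5.32 in MHC-II-negative and 3.66, 3.24 and 4.11 in MHC-II-positive replicates. Values near the array medians of 2.97 to 3.08 limit what can be seen of 9 members.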
